A study of Mus musculus with 6 samples.

Results

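The genes described are those that encode collagen chains, taken as every row of the count table whose symbol has the form Col, a number, the letter a and a number. That rule found 44 of the 52110 named rows. They were sorted by the structure their protein forms: 11 fibrillar genes, 9 network genes, 6 beaded filament genes, 9 genes of fibril-associated collagens, 4 transmembrane genes and 5 others. RNA came from muscle of wild-type mice of the strain given as c57b6l, 3 treated with the agent labelled click and 3 with the agent labelled EDC. The labels give no dose, time, age, muscle or untreated group, so values are set as click against EDC. The series design speaks of mice, so each library was taken as 1 animal.

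Collagens are trimeric matrix proteins wound from chains with a repeated glycine. Fibrillar collagens build the ropes of connective tissue, network collagens build sheets such as basement membranes, and beaded collagen VI links the basement membrane of a muscle fibre to the matrix around it. Fibril-associated collagens sit on the surface of fibrils, and transmembrane collagens are anchored in the cell surface. In skeletal muscle, fibroblast-like cells between the fibres make most of the fibrillar collagen.

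Between 34472421 and 39305779 reads were counted per library. Click replicate 2 stood apart from the rest, with the lowest level of the 6 libraries in 29 of the 41 collagen genes tested (70.7%), against 28.4% of all genes tested. EDC replicate 3 had the highest level in 21 of the 41 (51.2%, against 24.2% of all genes). In click, mitochondrially encoded genes took 30.2%, 27.0% and 18.9% of reads in replicates 1 to 3, against 14.8%, 17.9% and 16.8% in EDC, and the part of that difference in the results was not tested. Markers of muscle fibres summed to 93927 to 142211 CPM (reads scaled to library size with TMM factors) in click and 65716 to 103515 CPM in EDC, most of it from Acta1, Ckm, Myh4 and Tnnt3. Myh7 and Myh2 had the largest fold changes of the 7 markers, with Myh7 of slow fibres at 884, 1823 and 241 CPM in click and 1.60, 11.3 and 57.4 CPM in EDC (log2 fold change 5.39, SE 1.41, edgeR adjusted p = 0.298, DESeq2 adjusted p = 0.00333). Myh2 of type 2A fibres stood at 1159, 1543 and 579.9 CPM in click and 75.7, 301 and 553 CPM in EDC (log2 fold change 1.82, SE 0.71, DESeq2 adjusted p = 0.0815). In both myosins the groups did not overlap, and the part of fibre makeup in the collagen values was not tested. Of 5 skin markers Krt15 had 0 reads in all 6 libraries and Krt5 and Krt14 had 0 in 5 each, while Krt10 was at 1.27 to 1.96 CPM in click and 1.24 to 1.61 CPM in EDC. Dsp was at 0.109 to 0.326 CPM in click and 0 to 1.33 CPM in EDC. A count of 0 allows up to 3 reads, which is 0.0597 to 0.109 CPM here, for counting error only.

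Collagen genes as a whole lay lower in click muscle than in EDC muscle. Added over the 44 genes and divided by exon length, their level was 453, 112 and 637 RPKM (CPM per kilobase of exon) in click replicates 1 to 3. In EDC replicates 1 to 3 it was 959, 718 and 1127 RPKM. The groups did not overlap, and click replicate 3 and EDC replicate 2 were the nearest to each other. The means were 401 ± 266 RPKM in click and 934 ± 206 RPKM in EDC (SD, n = 3 each), a ratio of 2.33 in favour of EDC. In a whole tissue, fewer collagen-making cells and less collagen RNA per cell cannot be told apart.

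Of the 44 genes, 41 passed the low-count filter, and Col2a1, Col4a6 and Col9a2 did not. Among the 41, 31 had a negative log2 fold change (75.6%), against 48.7% of all genes tested, and the median was -1.14, against 0.02 over all genes. With library totals alone as the scaling, 38 of the 41 were negative. That scaling lowered all genes, with a median of -0.45 over all genes and -1.53 over the 41. No collagen gene passed the edgeR threshold (adjusted p of at least 0.298), a test that called 0.00633% of all genes. At an unadjusted edgeR p under 0.05, 12 of the 41 were lower in click (29.3%), against 8.0% of all genes, and 0 were higher, against 7.22%. In 17 of the 41 the 3 click values lay below the 3 EDC values (41.5%, against 12.4% of all genes), and in 0 they lay above (against 9.84%). The DESeq2 Wald test called 5 of the 41 as lower (12.2%, against 2.28% of all genes) and 0 as higher (against 1.57%).

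**Figure D1:**
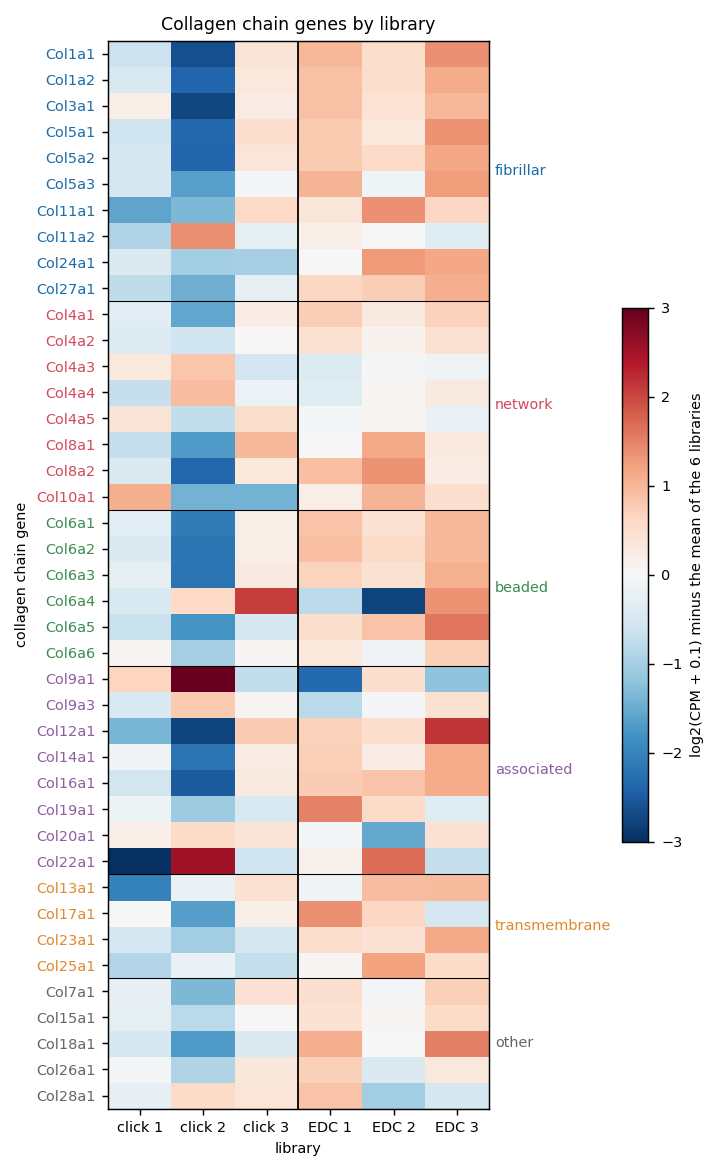
Each row is a collagen chain gene that was tested and each column a library. Colour gives log2(CPM + 0.1) minus the gene's mean over the 6 libraries, and row groups are the collagen classes. Most fibrillar and beaded genes are blue in click replicate 2 and red in EDC replicates 1 and 3, while Col11a2, Col9a1 and Col22a1 are red in click replicate 2.

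These counts moved with the libraries included, as did those over all genes. The 12 genes at an unadjusted edgeR p under 0.05 became 6 without click replicate 1, without EDC replicate 1 or without EDC replicate 3. Over all genes, in both directions, the number at that p was 2404 with all libraries, against 1992, 1442 and 1070 in those 3 runs. Without click replicate 3 there were 22 collagen genes and 3475 genes in all. Without click replicate 2 there were 15 of 1639, all lower, the median was -0.86, and 37 of 43 genes tested had a negative fold change. Click replicate 1 and EDC replicate 1 had Xist reads, and the other 4 libraries had reads of the Y-linked Ddx3y instead. In the mice with Xist reads the summed collagen level was 453 RPKM in click and 959 RPKM in EDC. Mice with Ddx3y reads had 112 and 637 RPKM in click and 718 and 1127 RPKM in EDC.

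A ratio of reads set the libraries apart as well. Reads of mt-Atp6 relative to its nuclear copy Gm10925 stood at 0.937 in click replicate 2 and at 0.927 and 0.937 in EDC replicates 1 and 3, and at 0.162 to 0.166 in the other libraries. Within the libraries of the high ratio, the summed collagen level was 112 RPKM in click and 959 and 1127 RPKM in EDC. Within those of the low ratio it was 453 and 637 RPKM in click and 718 RPKM in EDC. Every click sum lay below every EDC sum, so any split of the libraries gives click below EDC. The order within these sets is therefore not a test of the read ratio.

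Fibrillar collagens held most of the collagen RNA. Their summed level was 350, 67.5 and 489 RPKM in click replicates 1 to 3 and 741, 546 and 882 RPKM in EDC replicates 1 to 3. As a share of all collagen RPKM, they took 77.4%, 60.0% and 76.7% in click and 77.3%, 76.0% and 78.2% in EDC. Click replicate 2 was thus the one library with a lower fibrillar share, and the other click libraries lay within or near the EDC range. Col1a1, Col1a2 and Col3a1 alone held 77.0%, 58.4% and 73.7% of collagen reads in click and 75.2%, 73.8% and 74.4% in EDC. Of 10 fibrillar genes tested, 9 had a negative fold change, with a class median of -1.33, and 3 were at an unadjusted edgeR p under 0.05.

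Col3a1, which encodes the chain of the pliable collagen III, had the highest level per length, at 145 ± 103 RPKM in click and 300 ± 61.2 RPKM in EDC (SD, n = 3 each). Its level per library was 1975, 258 and 2027 CPM in click and 3139, 2270 and 3424 CPM in EDC. The groups did not overlap, though its log2 fold change, -1.05 (SE 0.69, edgeR adjusted p = 0.467), did not pass and was -0.60 without click replicate 2.

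Col1a1 and Col1a2 encode the chains of collagen I, the main fibril of tendon and of scar. Col1a1 stood at 479.6, 121 and 977 CPM in click and 1485, 1076 and 1936 CPM in EDC, which gave -1.51 as log2 fold change (SE 0.68, edgeR adjusted p = 0.341). Col1a2 stood at 634, 167 and 1085 CPM in click and 1618, 1265 and 1888 CPM in EDC, which gave -1.34 (SE 0.61, edgeR adjusted p = 0.343). In both genes the groups did not overlap, with click replicate 3 just below EDC replicate 2. The value of Col1a1 was -1.08 without click replicate 2, and leaving out click replicate 3 gave -2.32.

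Collagen V starts and limits the width of collagen I fibrils. Its gene Col5a2 was at 95.3, 25.7 and 172 CPM in click and 233, 199 and 299 CPM in EDC, and Col5a1 was at 75.4, 22.3 and 163 CPM against 197, 143 and 290 CPM. Col5a3 was at 33.4, 15.1 and 45.9 CPM in click and 96.2, 43.2 and 113 CPM in EDC, so that click replicate 3 lay above EDC replicate 2. Its log2 fold change was -1.42 (SE 0.49, edgeR adjusted p = 0.298). The fold changes of Col5a1 and Col5a2 were -1.27 (SE 0.66) and -1.32 (SE 0.61), and without click replicate 3 they were -2.10 and -2.01.

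Among the fibrillar genes, DESeq2 called Col24a1 and Col27a1, which are expressed in developing bone and cartilage and had far less RNA here than collagen I. Col24a1 stood at 4.74, 3.17 and 3.22 CPM in click and 6.55, 15.9 and 14.6 CPM in EDC, with EDC replicate 1 nearest to click. Its log2 fold change was -1.73 (SE 0.38, edgeR adjusted p = 0.298, DESeq2 adjusted p = 0.00633). Col27a1 stood at 3.44, 2.08 and 4.96 CPM in click and 9.11, 9.85 and 12.6 CPM in EDC, with no overlap. Its log2 fold change was -1.59 (SE 0.35, edgeR adjusted p = 0.298, DESeq2 adjusted p = 0.00561). In mm10, Col24a1 covers bases 145292472 to 145552011 of chromosome 3 and Col27a1 bases 63214004 to 63334991 of chromosome 4, both read on the plus strand.

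Genes of the cartilage collagens XI and II had little RNA next to collagen I. Col11a1 of collagen XI stood at 2.17, 2.59 and 10.1 CPM in click and 8.63, 17.4 and 10.3 CPM in EDC, with overlap. Its log2 fold change was -1.28 (SE 0.63, edgeR adjusted p = 0.365), and it lay between -2.34 and -0.94 in the alternatives run. Col11a2, a chain of the same trimer, was the fibrillar gene with a positive fold change, 0.45 (SE 0.61), and its highest value, 6.92 CPM, was in click replicate 2. Without that library its value was -0.57, and with library totals alone it was -0.065. Col2a1, the chain of cartilage collagen II, had 0, 2 and 0 reads in click and 26, 2 and 12 reads in EDC.

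**Figure D2:**
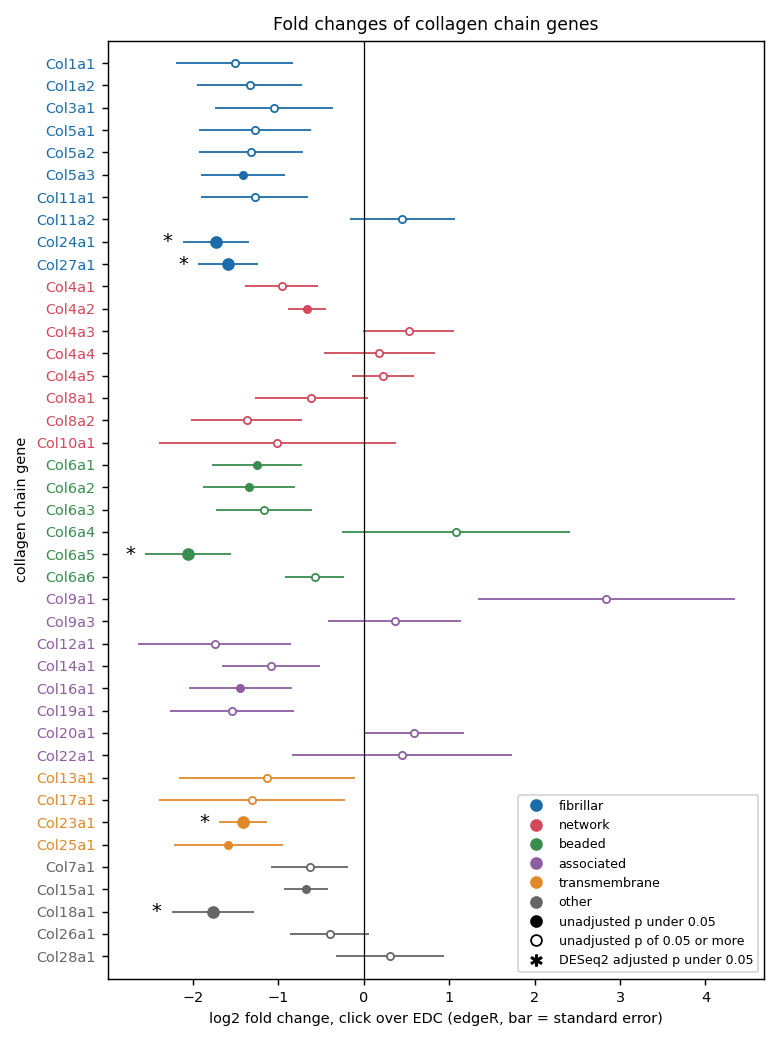
Points are edgeR log2 fold changes of click over EDC for the 41 collagen genes tested, and bars are standard errors derived from the test statistic. Filled points have an unadjusted p under 0.05 (12 genes) and stars mark the 5 genes with a DESeq2 adjusted p under 0.05. All filled points lie to the left of 0.

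The gene with the smallest edgeR p of the 41 was a transmembrane collagen. Col23a1, which encodes a transmembrane collagen whose ectodomain can be shed, stood at 6.70, 4.66 and 6.78 CPM in click and 13.9, 13.2 and 21.3 CPM in EDC. Even the lowest EDC library was well above the highest click library. The log2 fold change was -1.42 (SE 0.28, edgeR adjusted p = 0.298, DESeq2 adjusted p = 0.00260), and it lay between -1.90 and -1.17 in the 16 alternatives run. The gene (ENSMUSG00000063564.13) covers bases 51289920 to 51583918 of chromosome 11 in mm10, read on the plus strand.

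The other 3 transmembrane genes had little RNA. Col25a1, needed in mice for motor axons to enter muscle, had 4, 8 and 7 reads in click and 16, 34 and 28 reads in EDC (log2 fold change -1.59, SE 0.64, edgeR adjusted p = 0.314). Col13a1, a component of the neuromuscular junction, had 0, 7 and 18 reads in click and 12, 24 and 34 reads in EDC, with overlap. Col17a1 of the skin hemidesmosome had 6, 0 and 10 reads in click and 31, 14 and 6 reads in EDC. The 4 class members all had negative log2 fold changes, with a median of -1.36.

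The promoter windows of Col23a1, Col24a1 and Col27a1, the 3 genes with the smallest p, are shown from 250 bases before to 50 bases after a RefSeq start (GRCm38.p6, the build also called mm10). Capitals mark GGGCGG, the core of a GC box, and CCAAT or TATAAA, searched on both strands, so that CCGCCC and ATTGG also count. No overlap between these motifs occurs in the windows. The windows are chr11:51289670-51289969, chr3:145292222-145292521 and chr4:63215162-63215461, all on the plus strand.
Col23a1: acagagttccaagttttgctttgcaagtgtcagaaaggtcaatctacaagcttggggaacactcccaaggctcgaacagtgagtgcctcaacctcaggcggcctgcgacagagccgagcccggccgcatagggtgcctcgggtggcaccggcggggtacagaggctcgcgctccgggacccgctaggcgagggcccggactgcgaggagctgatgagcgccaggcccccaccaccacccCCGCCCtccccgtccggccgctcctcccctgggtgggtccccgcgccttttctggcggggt
Col24a1: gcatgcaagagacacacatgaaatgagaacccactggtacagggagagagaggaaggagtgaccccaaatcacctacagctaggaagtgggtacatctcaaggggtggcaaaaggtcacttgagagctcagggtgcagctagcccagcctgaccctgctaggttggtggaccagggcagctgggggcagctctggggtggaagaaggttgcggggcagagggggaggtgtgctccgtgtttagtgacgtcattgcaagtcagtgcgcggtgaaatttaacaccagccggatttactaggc
Col27a1: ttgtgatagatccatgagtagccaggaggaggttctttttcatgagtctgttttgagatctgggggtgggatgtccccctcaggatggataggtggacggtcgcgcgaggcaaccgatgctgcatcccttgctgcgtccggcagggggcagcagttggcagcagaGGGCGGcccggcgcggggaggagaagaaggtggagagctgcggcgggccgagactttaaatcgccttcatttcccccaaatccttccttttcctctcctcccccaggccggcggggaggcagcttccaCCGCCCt

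GGGCGG was found once in the Col23a1 window, 0 times in that of Col24a1 and 2 times in that of Col27a1. No window of the 3 held CCAAT or TATAAA. Of 33 tested collagen genes with a RefSeq window, 20 held GGGCGG (60.6%), 13 held CCAAT (39.4%) and 5 held TATAAA (15.2%). Among 11193 tested genes with a window, the shares were 65.8%, 42.3% and 9.43%, and over all 32851 windows they were 35.7%, 37.4% and 13.6%. Shares of genes count a gene if any of its windows held the motif. Shares of all windows are per window and take in genes not tested, so they are not like for like. The letters CAGAC, part of the sites that Smad proteins bind, were in 19 of the 33 (57.6%), against 53.0% of tested genes and 49.6% of all windows.

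The 3 main chains of beaded collagen VI lay lower in click than in EDC. Its filaments surround each muscle fibre, and loss of any of these chains in humans causes congenital muscle disease. Col6a1 stood at 127, 37.0 and 178 CPM in click and 288, 213 and 313 CPM in EDC. Col6a2 stood at 107, 31.8 and 166 CPM in click and 271, 215 and 284 CPM in EDC. The third chain, Col6a3, stood at 107, 28.2 and 157 CPM in click and 207, 177 and 272 CPM in EDC. In all 3 the highest click library, replicate 3, was below the lowest EDC library, replicate 2. Their log2 fold changes were -1.25 (SE 0.53, edgeR adjusted p = 0.328), -1.34 (SE 0.54, edgeR adjusted p = 0.314) and -1.17 (SE 0.56, edgeR adjusted p = 0.359).

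Col6a5 encodes a chain that can take the place of the Col6a3 product, and it had the most negative fold change of the 41. It stood at 1.16, 0.473 and 1.29 CPM in click and 2.77, 3.49 and 5.97 CPM in EDC, with no overlap. The log2 fold change was -2.06 (SE 0.50, edgeR adjusted p = 0.298, DESeq2 adjusted p = 0.0105). The remaining alternative chains overlapped between groups. Col6a6 was at 12.2, 5.90 and 12.2 CPM in click and 14.7, 11.1 and 19.4 CPM in EDC, and Col6a4 had 11, 26 and 111 reads in click and 13, 0 and 83 reads in EDC. Col6a6, Col6a5 and Col6a4 lie next to each other on chromosome 9 between 105687809 and 106096783, all on the minus strand, with fold changes of -0.58, -2.06 and 1.08.

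The network class had a ratio of summed levels of 1.77 in favour of EDC, against 2.39 for the fibrillar class, a difference between classes that was not tested. Its summed level was 30.0, 17.6 and 45.4 RPKM in click and 58.0, 49.1 and 57.1 RPKM in EDC, with no overlap. Its share of collagen RPKM was 6.62%, 15.7% and 7.12% in click and 6.05%, 6.84% and 5.07% in EDC, highest in click replicate 2. Of 8 network genes tested, 5 had a negative fold change, with a class median of -0.64.

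Col4a1 and Col4a2 encode the chains of the collagen IV of nearly all basement membranes. Col4a1 stood at 119, 51.1 and 176 CPM in click and 250, 180.1 and 243 CPM in EDC (log2 fold change -0.96, SE 0.43, edgeR adjusted p = 0.337). Col4a2 stood at 67.8, 59.7 and 91.0 CPM in click and 124, 98.6 and 125 CPM in EDC (log2 fold change -0.67, SE 0.22, edgeR adjusted p = 0.298). In both genes the groups did not overlap, and click replicate 3 was close to EDC replicate 2.

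The Col4a1 and Col4a2 genes stand head to head on chromosome 8, with annotated starts that overlap by 22 bases. Their promoter windows share 78 bases, from 11312777 to 11312854, so they are printed to show a start region used in both directions. Capitals mark the same letters as above. The windows are chr8:11312777-11313076 on the minus strand for Col4a1 and chr8:11312555-11312854 on the plus strand for Col4a2.
Col4a1: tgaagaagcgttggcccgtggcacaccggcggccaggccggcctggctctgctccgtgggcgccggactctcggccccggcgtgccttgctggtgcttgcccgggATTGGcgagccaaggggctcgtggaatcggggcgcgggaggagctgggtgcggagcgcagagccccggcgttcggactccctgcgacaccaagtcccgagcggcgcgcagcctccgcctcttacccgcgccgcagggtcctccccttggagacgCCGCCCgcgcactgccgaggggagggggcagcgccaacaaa
Col4a2: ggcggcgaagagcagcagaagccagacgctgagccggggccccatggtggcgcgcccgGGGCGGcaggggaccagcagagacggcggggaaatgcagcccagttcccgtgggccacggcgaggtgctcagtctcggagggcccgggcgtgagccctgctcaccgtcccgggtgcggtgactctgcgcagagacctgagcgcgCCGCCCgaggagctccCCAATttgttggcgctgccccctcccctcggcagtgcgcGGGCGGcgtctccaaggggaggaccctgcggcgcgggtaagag

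Each of these windows held 1 CCAAT, and GGGCGG was found 1 time in that of Col4a1 and 3 times in that of Col4a2. Col4a1 reads divided by Col4a2 reads gave 1.75, 0.856 and 1.93 for the click libraries, against 2.02, 1.83 and 1.95 for the EDC libraries. Click replicate 2 was the one library with fewer reads of Col4a1 than of Col4a2.

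The remaining collagen IV genes, known from kidney and other specialised basement membranes, did not lie lower. Col4a5 stood at 6.26, 2.84 and 6.91 CPM in click and 4.65, 4.95 and 4.16 CPM in EDC (log2 fold change 0.22, SE 0.36). Col4a3 and Col4a4, head to head on chromosome 1 with 71 bases between them, had values of 0.52 (SE 0.53) and 0.18 (SE 0.65). All 3 overlapped between groups, and all 3 turned negative with library totals alone. Of the Col4a3 exon bases, 563 (5.65%) overlap the opposite-strand gene C430014B12Rik, so Col4a3 reads are uncertain without a stated strand setting. Col4a6 had 10, 6 and 10 reads in click and 6, 0 and 0 reads in EDC and was not tested.

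Short-chain network collagens varied between mice of a group. Col8a1, of the collagen VIII found in vessel walls, was at 13.5, 6.70 and 42.9 CPM in click and 22.1, 48.0 and 27.0 CPM in EDC. Col8a2 was at 3.73, 0.910 and 6.40 CPM in click and 9.60, 13.2 and 5.97 CPM in EDC. Both overlapped between the groups. Col10a1, a marker of hypertrophic cartilage, had at most 16 reads in any library.

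**Figure D3:**
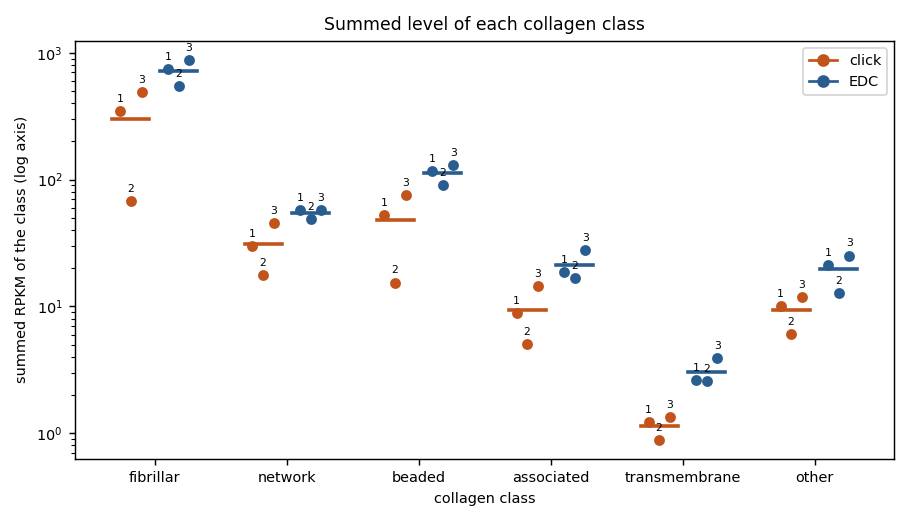
Points are the summed RPKM of each collagen class per library on a log axis, with replicate numbers above them and a line at the group mean. Click stands left of EDC in each class. In all 6 classes the 3 click points lie below the 3 EDC points, and click replicate 2 is the lowest. The sums rest mostly on the genes with most RNA. Gene by gene, click lay below EDC without overlap in 6 of 10 fibrillar, 2 of 8 network and 4 of 6 beaded genes tested. It did so in 1 of 8 associated, 2 of 4 transmembrane and 2 of 5 other genes, against 12.4% of all genes.

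Fibril-associated collagens were split between genes with high and low levels. The class sum was 8.84, 5.04 and 14.4 RPKM in click and 18.8, 16.7 and 27.9 RPKM in EDC. Col14a1, which binds collagen I fibrils, was at 36.6, 8.45 and 45.7 CPM in click and 64.0, 45.5 and 83.8 CPM in EDC. Click replicate 3 was level with EDC replicate 2 there. Col16a1 was at 16.8, 4.30 and 30.1 CPM in click and 41.9, 44.6 and 53.5 CPM in EDC, with no overlap (log2 fold change -1.45, SE 0.60, edgeR adjusted p = 0.326). Col12a1, made under mechanical load in tendon and muscle, was at 9.63, 3.53 and 42.5 CPM in click and 40.3, 36.2 and 111 CPM in EDC. Its log2 fold change was -1.75 (SE 0.90, edgeR adjusted p = 0.378), which leaving out click replicate 3 turned to -3.25 and leaving out EDC replicate 3 to -1.04.

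The low-level members of that class did not share a direction. Col9a1, a cartilage collagen chain, had the highest fold change of the 41, 2.84 (SE 1.5, edgeR adjusted p = 0.387). It had 19, 117 and 8 reads in click and 0, 22 and 6 reads in EDC, and its value was 0.86 without click replicate 2, while leaving out EDC replicate 2 gave 4.70. Col22a1, which marks the junction of muscle and tendon, had 6, 417 and 64 reads in click and 120, 299 and 75 reads in EDC. Its value of 0.44 (SE 1.28) became -2.17 without click replicate 2. Col19a1 was at -1.54 (SE 0.73), Col20a1 at 0.59 (SE 0.59) and Col9a3 at 0.36 (SE 0.77) on the log2 fold change scale. The class median was -0.37 with all libraries, over 8 genes. It was -1.03 without click replicate 2, and leaving out click replicate 3 or EDC replicate 2 gave -1.51 or -1.34. Those runs also tested Col9a2, so their medians cover 9 genes and are not like for like with -0.37. A stretch of 234 exon bases of Col9a3, 6.07% of its length, overlaps the opposite-strand gene Tcfl5, so its reads are uncertain without a stated strand setting.

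Among genes outside the 5 classes, the basement membrane collagens had most RNA. Col18a1, whose product releases endostatin, stood at 23.6, 10.2 and 24.7 CPM in click and 71.1, 33.0 and 95.4 CPM in EDC, with no overlap. Its log2 fold change was -1.77 (SE 0.48, edgeR adjusted p = 0.298, DESeq2 adjusted p = 0.0167). Col15a1, found where muscle fibres and capillaries meet the matrix, stood at 34.9, 24.0 and 42.3 CPM in click and 56.9, 43.6 and 61.8 CPM in EDC (log2 fold change -0.68, SE 0.26, edgeR adjusted p = 0.305). Col7a1 of the anchoring fibrils stood at 6.88, 3.17 and 11.1 CPM in click and 11.5, 7.94 and 13.4 CPM in EDC, with overlap (log2 fold change -0.63, SE 0.45). Col26a1 was at -0.40 (SE 0.46) and Col28a1, a collagen of peripheral nerve, at 0.31 (SE 0.63). Without click replicate 2 the median of these 5 genes was -0.33, against -0.63 with all libraries.

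The 5 DESeq2 calls were repeated with each library left out, a check chosen after the data were seen. Col23a1 was called in all 6 runs. Col24a1, Col27a1 and Col6a5 were called in 5, and lost without EDC replicate 3. Col18a1 was called in 3, and lost without click replicate 2, EDC replicate 1 or EDC replicate 3. Without click replicate 3, 21 collagen genes were called, all lower, among them Col1a1 and Col1a2, and without EDC replicate 2 there were 8, of which Col9a1 was higher. Calls over all genes moved too, with 1786 and 1168 in those runs, 129 without EDC replicate 3 and 606 with all libraries.

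Ratios between chains that join in one trimer or fibril overlapped between the groups in all 6 pairs examined. Col1a1 reads divided by Col1a2 reads gave 0.756, 0.725 and 0.901 for the click libraries, against 0.918, 0.851 and 1.03 for the EDC libraries. For Col3a1 divided by Col1a1 the click values were 4.12, 2.14 and 2.07, and the EDC values 2.11, 2.11 and 1.77. Click replicate 1 stood above the other 5 libraries in that ratio. The exact two-sided permutation p was 0.2 to 0.8 (adjusted 0.4 to 0.8 over the 6), where 0.1 is the smallest value that 3 against 3 libraries allow.

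**Figure D4:**
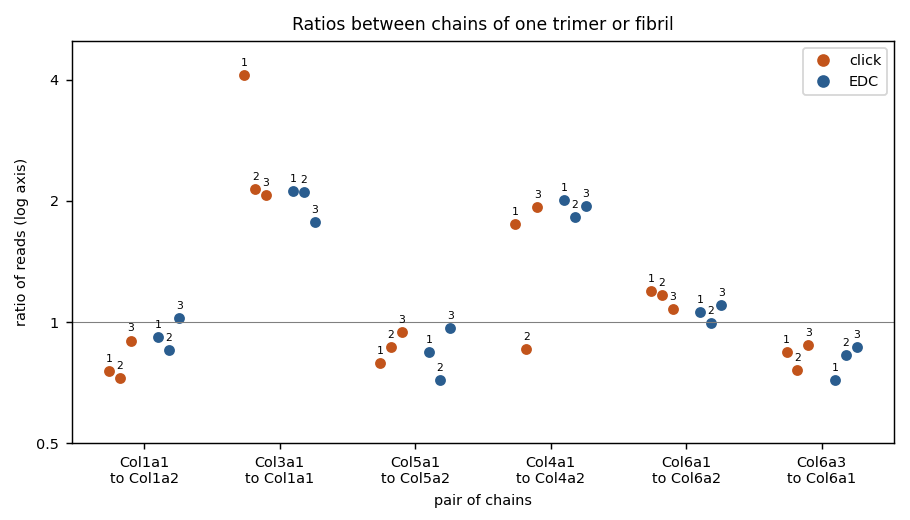
Points are reads of the first chain divided by reads of the second in each library, on a log axis, with replicate numbers above them. Click replicate 1 stands apart at 4.12 for Col3a1 to Col1a1 and click replicate 2 at 0.856 for Col4a1 to Col4a2. The other ratios overlap between click and EDC.

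Genes that fold, process and bind collagen were read from lists chosen with earlier results known. Of 21 folding and modification genes, 16 had a negative and 5 a positive fold change, with a median of -0.59. At an unadjusted edgeR p under 0.05, 7 were lower and 0 higher. The highest fold change of the list was that of Serpinh1, a collagen chaperone (log2 fold change 0.94, SE 0.59). It stood at 33.9, 54.7 and 185 CPM in click and 51.4, 42.3 and 48.6 CPM in EDC, with overlap. For all lists, 8.0% of all genes tested were lower and 7.22% higher at that p. Crtap, part of the prolyl 3-hydroxylase complex, was at 14.8, 8.27 and 18.9 CPM in click and 32.6, 27.2 and 37.2 CPM in EDC (log2 fold change -1.21, SE 0.32, DESeq2 adjusted p = 0.0283). P3h4, which takes part in collagen lysine hydroxylation, was at 3.08, 2.59 and 4.43 CPM in click muscle and 7.51, 5.89 and 5.99 CPM in EDC muscle (-0.94, SE 0.29). Neither gene overlapped between the groups. Of 12 propeptide processing and cross-linking genes tested, 11 had a negative value, with a median of -1.07, and 3 were lower at an unadjusted p under 0.05 and 1, Pcolce2, was higher (log2 fold change 1.15). The lysyl oxidases that join collagen chains included Loxl3, at 4.74, 3.02 and 7.27 CPM in click muscle and 12.2, 17.5 and 15.7 CPM in EDC muscle (-1.59, SE 0.35, DESeq2 adjusted p = 0.00450). Lox was at 29.3, 11.6 and 48.3 CPM in click muscle and 110.3, 41.6 and 99.5 CPM in EDC muscle (-1.49, SE 0.57), with click replicate 3 above EDC replicate 2.

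Receptors, proteases and basement membrane partners followed. Of 9 receptors tested 3 were lower at an unadjusted p under 0.05, with a median of -0.48 over 9, among them Mrc2 and Ddr2. Mrc2, which takes up collagen fragments, was at 10.1, 5.03 and 16.3 CPM in click muscle and 29.4, 20.7 and 28.2 CPM in EDC muscle (-1.31, SE 0.41). Ddr2, a kinase that binds fibrillar collagen, was at 23.2, 9.83 and 17.8 CPM in click muscle and 31.5, 27.9 and 39.5 CPM in EDC muscle (-0.96, SE 0.33). Neither of these receptors overlapped between the groups. Lair1, the other receptor at that p, had the most negative fold change of the 9 and was the one that DESeq2 called. It was at 4.82, 0.473 and 3.75 CPM in click muscle and 8.54, 11.1 and 28.1 CPM in EDC muscle (-2.40, SE 0.82, DESeq2 adjusted p = 0.0406). All 7 breakdown genes had negative values, with a median of -1.87, and 4 were lower at an unadjusted p under 0.05. The collagenase Mmp8 was at 0.217, 0.182 and 0 CPM in click muscle and 4.79, 0.277 and 5.61 CPM in EDC muscle (-4.79, SE 1.36, DESeq2 adjusted p = 0.00661), so that EDC replicate 2 was close to click. Mmp13 was at 0.652, 0 and 2.33 CPM in click muscle and 5.93, 3.54 and 65.5 CPM in EDC muscle (-4.60, SE 1.57), with EDC replicate 3 far above the rest. Of 11 basement membrane partners 8 had a negative value, with a median of -0.79, and 5 were lower at an unadjusted p under 0.05. Agrn, agrin, was at 11.3, 9.54 and 6.96 CPM in click muscle and 16.5, 16.2 and 18.95 CPM in EDC muscle (-0.89, SE 0.23, DESeq2 adjusted p = 0.0458), with no overlap. Nid1, nidogen, was at 65.0, 38.2 and 78.5 CPM in click muscle and 125, 86.6 and 143 CPM in EDC muscle (-0.96, SE 0.32), also with no overlap. None of these genes passed the edgeR threshold (edgeR adjusted p of 0.298 or more).

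Fibroblast markers also lay lower in click on average, but their summed levels overlapped between the groups, with click replicate 3 above EDC replicate 2. The 10 fibroblast markers summed to 901, 355 and 1520 CPM in click and 1755, 1352 and 2055 CPM in EDC. Of them 8 had a negative fold change, with a median of -0.70 that was -0.41 without click replicate 2. Pdgfra and Pdgfrb were lower at an unadjusted edgeR p under 0.05 (DESeq2 adjusted p = 0.0485 and 0.0484). In Pdgfra, Pdgfrb, Lum and Dpt the groups did not overlap, while in the other markers they did. Postn held 753 of the 1520 CPM in click replicate 3. None of the 10 markers was at 0 reads in any library. Summed collagen CPM divided by summed fibroblast marker CPM was 4.45, 2.63 and 3.65 in click and 4.73, 4.62 and 4.74 in EDC, a measure chosen after the values were seen. The groups did not overlap in that ratio either, which does not depend on library scaling. The part of cell number in the collagen values was not tested.

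Markers of other cells were mixed. The 6 macrophage markers summed to 981, 116 and 876 CPM in click and 1832, 1440.1 and 3635 CPM in EDC, and all 6 had negative fold changes. The 5 Schwann cell markers summed to 83.0, 226 and 97.3 CPM in click and 59.6, 59.1 and 32.9 CPM in EDC, highest in click replicate 2. All 5 had positive fold changes, with a median of 1.35 that was 0.77 without click replicate 2. The 11 tendon and cartilage markers summed to 71.9, 56.2 and 192 CPM in click and 224, 254 and 175 CPM in EDC, with Mkx, Acan, Matn1, Matn4 and Chad at 0 reads in at least 1 library. Endothelial markers summed to 195 to 230 CPM in click and 190.5 to 232 CPM in EDC, and smooth muscle and pericyte markers to 2563 to 3399 CPM in click and 2240 to 2933 CPM in EDC. Most of the last sum was Des, which muscle fibres express too. Myh11, the smooth muscle myosin, was at 39.1, 47.4 and 30.2 CPM in click and 15.1, 11.4 and 13.8 CPM in EDC, with no overlap (log2 fold change 1.53, SE 0.23, edgeR adjusted p = 0.298, DESeq2 adjusted p = 3.60e-05). Acta2 and Rgs5 of the same list were at 0.07 (SE 0.23) and 0.25 (SE 0.24). The part of these cells in the collagen values was not tested.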

How the data were processed

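RNA sequencing read counts per gene in mouse muscle, 3 click and 3 EDC libraries, were used as the authors deposited them, as whole numbers without normalisation. The submitters' processing notes name mm10 as the genome build. For the aligner, counter, annotation and strand setting, each is not given in the sources used here. Per the labels' protocols, libraries were made with a SMARTER kit from total RNA.

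Of 55335 lines, 3225 had no symbol (0.0631% to 0.0996% of reads) and were left out. A further 80 lines repeated the symbol of another line. The line with the most reads kept the symbol, and the repeats were taken on under a numbered name. Exon lengths and coordinates came from GENCODE M21 and promoter windows from RefSeq GRCm38.p6, which held 35 of the 44 collagen genes. CPM used TMM factors, and RPKM divided CPM by the summed exon length.

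The test was edgeR 4.0.16 (quasi-likelihood, TMM, default filter, robust, R 4.3.3), two-sided, with Benjamini-Hochberg adjustment over 15797 genes at 0.05. Its code was checked on simulated counts with a fixed dispersion, which does not measure its power at the spread of these libraries. The SE of each edgeR fold change was derived from that test, as its absolute log2 value divided by the square root of the F statistic. DESeq2 1.42.0 and limma 3.58.1 were alternatives. Ratios used an exact permutation test. Alternatives were other scalings and filters, limma-voom, the replicate block, sex or mt-Atp6 read ratio as a covariate, and leaving out each library. DESeq2 without each library, the ratio to fibroblast markers and the printed promoters were chosen after the data were seen. Collagen genes, classes and lists were chosen with earlier results of these data known. Values per library are given for the 3 genes of each class with the highest RPKM, those at an unadjusted p under 0.05 and those called, and for each list the 2 genes with the smallest p. Other genes, Myh7, Myh2, Myh11 and Lair1 among them, were named after their values were seen.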

Additional observations from a re-analysis of the deposited data

How the results depend on the processing

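The number of genes called over all genes was 1 with edgeR, 606 with the DESeq2 Wald test, and 0 with limma-voom (2580), with the replicate block (3673), with sex as a covariate (1906) and with the mt-Atp6 read ratio as a covariate (1676), each count in brackets being at an unadjusted p under 0.05. It was 0 to 7 with 1 library left out. Collagen genes called were 0 in every edgeR and limma-voom alternative and 5 with DESeq2, whose count with 1 library left out was 1 to 21. Collagen genes at an unadjusted p under 0.05 numbered 12, of 2404 genes in all at that p. With DESeq2 there were 22 (21 lower and 1 higher) of 2988, and with the replicate block 21 of 3673. With 1 library left out there were 6 to 22, where the genes in all numbered 1070 to 3475. Library totals alone moved the median of all genes by -0.47 and that of the collagen genes to -1.53. With that scaling the summed transmembrane level differed by -1.90 (log2). The collagen median kept its sign in all 16 alternatives, from -1.61 to -0.86.

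Of 41 collagen genes, 34 kept their sign throughout. The 7 that did not all had positive values in the main test. With library totals alone they were -0.065 for Col11a2, -0.037 for Col4a3, -0.33 for Col4a4, -0.20 for Col4a5, -0.14 for Col9a3, -0.038 for Col22a1 and -0.17 for Col28a1. With limma-voom Col4a4 was -0.019 and Col22a1 -0.78. Col22a1 was -0.54 with the replicate block, -0.32 with sex and -0.10 with the mt-Atp6 read ratio as a covariate, where Col4a5 was -0.10 too. With 1 library left out the ranges were -0.57 to 0.83 for Col11a2, -0.57 to 0.51 for Col4a4, -0.010 to 0.49 for Col4a5, -0.20 to 0.88 for Col9a3, -2.17 to 1.41 for Col22a1, -0.075 to 1.15 for Col28a1, -0.061 to 0.15 for the log2 difference of Col5a1 to Col5a2 and -0.041 to 0.099 for the log2 difference of Col6a3 to Col6a1. The cause was not tested.

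The deviations of same-numbered libraries correlated at -0.047, 0.193 and 0.279 for replicates 1, 2 and 3, so the numbers were not taken as pairs. Replicates 2 and 3 correlated best with their own number, and click replicate 1 with EDC replicate 2. Without a low-count filter all 44 genes were tested and 33 were lower in click, and at a mean of 50 reads 29 were tested and 26 were lower.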
